A study of Oryza sativa with 3 samples.

Results

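The miR172 family of rice (Oryza sativa, japonica) is described here across young panicles of 3 genotypes. The genotypes are ld-1 and ld-2, both lodiculeless mutants, and the wild type, with 1 small RNA library each and no treatment. The series title names a mutation of microRNA172b as the cause of the lodiculeless spikelet, and what the ld-1 and ld-2 alleles change is not given in the labels. The family was taken as every row of the deposited count table whose name starts with miR172, which gave 4 of 367 rows: miR172a//miR172d (1 sequence shared by 2 loci), miR172b, miR172c and a second row named miR172d. Of these, 3 reached 30 reads over all libraries, the minimum for comparison, and miR172c had none.

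miR172 is an ancient plant miRNA that represses AP2-like transcription factors by cleaving their transcripts and blocking their translation. In rice its targets include SNB and OsIDS1, which set the fate of spikelet meristems and the number of floral organs made inside a spikelet. Lodicules are the small scale-like organs at the base of a grass floret that swell and push the floret open, and in barley a changed miR172 site in an AP2 gene is known to give small lodicules and closed flowering (cleistogamy).

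The sequences are shown because the family's members differ by so little that a single base carries the finding. They are given 5′ to 3′ in DNA letters as deposited, with the seed, bases 2 to 8, in capitals.
miR172a//miR172d: aGAATCTTgatgatgctgcat
miR172b: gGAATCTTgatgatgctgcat
miR172c: tGAATCTTgatgatgctgcac
miR172d, second row: gCAGCACCatcaagattcac

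The first 3 rows are 21 bases long and share the seed GAATCTT. From miR172a//miR172d to miR172b the only difference is A1G, counted from 1 at the 5′ end, and miR172c differs from miR172a//miR172d by A1T and T21C. The second miR172d row is 20 bases long, has another seed, and lies 10 or 11 edits from the other members. Its letters instead pair with them as an opposite strand would: 17 of 19 overlapping bases were complementary to miR172a//miR172d and to miR172b, and 18 of 19 to miR172c. The table names no arms, so this row is described by its sequence. No other row of the table came close to the family: 0 of the 363 remaining rows shared a member's seed, the nearest lay 7 edits away, and none paired with a member of the shared seed at more than 13 bases.

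The libraries held 140807 miRNA reads in ld-1, 66642 in ld-2 and 116818 in wild type. Levels between libraries are given as scaled RPM, which is read counts in RPM after TMM scaling (a trimmed mean of log ratios that sets library sizes), and 1 read was worth 8.27, 12.9 and 8.52 scaled RPM in ld-1, ld-2 and wild type. A feature is called listed when it differed at least 2-fold and its exact 95% interval excluded a ratio of 1. With 1 library per genotype these intervals cover counting error only, no p-value is given, and no difference was set against the spread between plants. Plants grew in a greenhouse or a field plot, and the labels do not say which held for which library. Before scaling, reads of the miR2118 family, which is abundant around early anther development, numbered 1208 in ld-1, 2880 in ld-2 and 1292 in wild type. The ld-2 library was the smallest, so these unscaled counts understate its excess. A part of panicle stage or anther content in the ld-2 values below was not tested. In whole panicles, fewer cells with a miRNA and less of it per cell cannot be told apart.

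Reads of the deposited sequence of miR172b, the member named in the title, were near 0 in both mutants. Each row stands for a fixed sequence. Reads of a miR172b altered by the mutation, if there were any, need not be counted in this row or in the family sum. Whether there were such reads was not tested. The miR172b row had 2 reads in ld-1 and 1 in ld-2, against 298 in wild type. That is 16.5 scaled RPM in ld-1 (exact 95% Poisson bounds 2.00 and 59.8) and 12.9 in the ld-2 library (0.327 and 72.1), against 2540.0 in wild type (2260 to 2845). Each mutant interval lies far below that of wild type. On the log2 scale ld-1 stood at -7.26 relative to wild type (-10.31 to -5.40), and ld-2 stood at -7.62 (-12.93 to -5.13). At the wild type level, 307 reads of miR172b would have been counted in the ld-1 library and 196 in the ld-2 library.

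miR172b stood at the low end of all features compared. Of 109 tested features, 2.75% were listed lower in ld-1 and 8.26% in ld-2. miR172b was the 1 miR172 row among them in either mutant. No miR172 row was listed higher, against 6.42% of features in ld-1 and 20.2% in ld-2. In ld-2 miR172b had the lowest ratio of the 109 tested, and the next lowest, the sequence shared by miR156a to miR156j, was at -1.71. miR172b reached the read minimum through its 298 wild type reads. The 168 rows with reads under that minimum were not ranked. They include a miR160c row with 0 reads in ld-2 and 15 in wild type. In ld-1 miR172b ranked 2 from the lowest, after the shared miR1861b sequence with 0 reads in ld-1 and 17 in wild type, whose ratio has no lower limit. By reads miR172b ranked 163 of all rows in ld-1 and 169 in ld-2, against 28 in wild type.

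The sequence shared by miR172a and miR172d, which has the same seed, stayed abundant in the same libraries. It had 603 reads in ld-1, 229 in ld-2 and 522 in wild type, or 4989.5, 2962 and 4449 scaled RPM. It ranked 17 of all rows in ld-1, 24 in ld-2 and 20 in wild type. Relative to wild type its log2 ratio in ld-1 was 0.17 (-0.01 to 0.34), an interval that includes 0, and -0.06 (-0.23 to 0.11) when reads were scaled by all miRNA reads, so its direction in ld-1 was not fixed. In ld-2 it was -0.59 (-0.82 to -0.36), lower than wild type but short of 2-fold. Neither ratio was listed.

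The second miR172d row was the least abundant member with reads in wild type. It had 80 reads in ld-1, 45 in ld-2 and 115 in wild type, or 662, 582 and 980.2 scaled RPM. The ld-1 log2 ratio was -0.57 (-0.997 to -0.14) and the ld-2 log2 ratio was -0.75 (-1.28 to -0.24), below 0 in both mutants and listed in neither. Per 100 reads of miR172a//miR172d it had 13.3 reads in ld-1, 19.7 in ld-2 and 22.0 in wild type. As a share of these rows together it was 11.7% in ld-1 (exact 95% binomial interval 9.40% to 14.4%), 16.4% in ld-2 (12.2% to 21.4%) and 18.1% in wild type (15.1% to 21.3%). The ld-1 interval lies below that of wild type, whereas that of ld-2 overlaps both.

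miR172c was not detected in any library. A count of 0 allows, by a floor of 3 reads, up to 24.8 scaled RPM in ld-1, 38.8 in ld-2 and 25.6 in wild type. The exact 2-sided 95% Poisson bounds drawn in the plot of levels are higher, at 30.5, 47.7 and 31.4 scaled RPM. Within the family it allows a share of up to 0.438%, 1.09% and 0.321% of reads in ld-1, ld-2 and wild type by this floor, and up to 0.537%, 1.33% and 0.394% by the exact 2-sided 95% binomial interval.

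**Figure D1:**
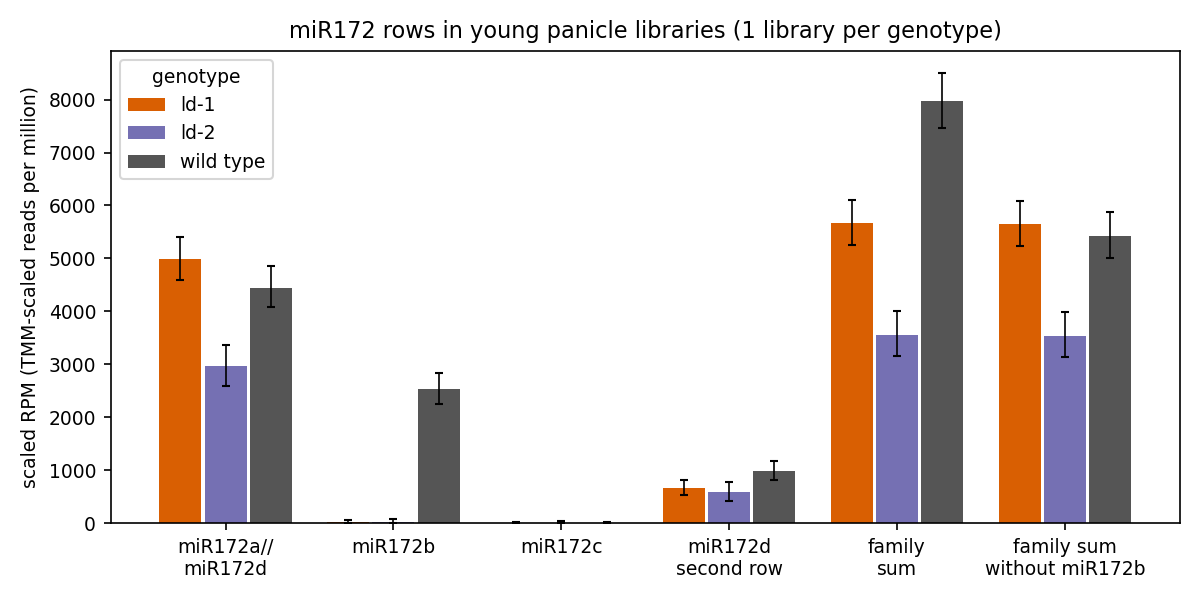
Bars give the scaled RPM (linear axis) of each miR172 row and of the family with and without miR172b in ld-1, ld-2 and wild type, 1 library each, and error bars are exact 95% Poisson intervals. miR172b stands at 16.5 and 12.9 scaled RPM in ld-1 and ld-2, against 2540.0 in wild type, while the family without miR172b is at 5651 in ld-1, 3544 in ld-2 and 5430 in wild type.

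**Figure D2:**
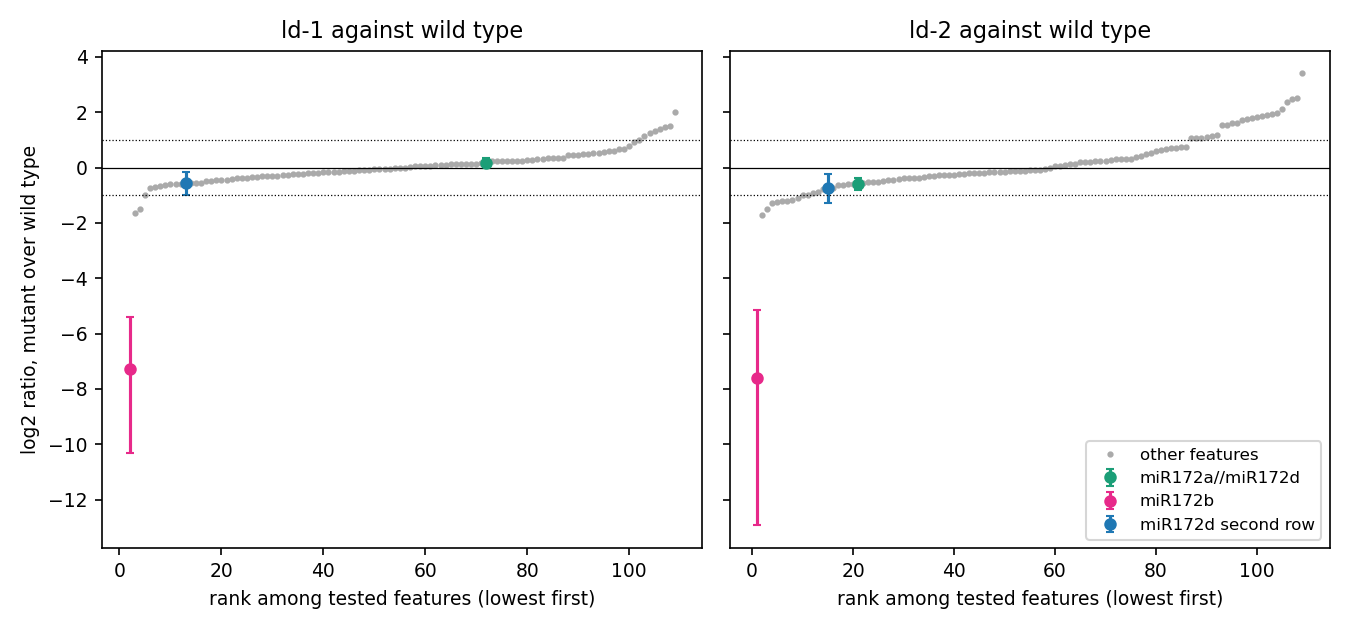
Points give the log2 ratio of each of 109 tested features, ranked from the lowest, in ld-1 (left) and ld-2 (right) over wild type; coloured points are miR172 rows with exact 95% intervals, dotted lines mark 2-fold, and the miR1861b sequence with 0 reads in ld-1 is not drawn. miR172b, at -7.26 and -7.62, lies apart from the other miR172 rows, whose ratios stay within 2-fold.

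The make-up of the family can be read within each library, where no scaling between libraries enters. The share of miR172b was 0.292% (0.0354% to 1.05%) of 685 reads in ld-1, and for ld-2 it was 0.364% (0.00921% to 2.01%) of 275, against 31.9% (28.9% to 35.0%) of 935 in wild type. miR172a//miR172d took 88.0% (85.4% to 90.4%) in ld-1, and for ld-2 83.3% (78.3% to 87.5%), against 55.8% (52.6% to 59.0%) in wild type. The second miR172d row took 11.7% (9.37% to 14.3%) in ld-1, and for ld-2 16.4% (12.2% to 21.3%), against 12.3% (10.3% to 14.6%) in wild type. The mutants thus differ from wild type in the first and second of these shares beyond counting error, while the intervals of the third overlap. The shares of a library make up a whole, so a lower miR172b share raises the others and the second difference is not separate. In ld-2 the level of miR172a//miR172d was lower than in wild type (log2 ratio -0.59), although its share was higher. Of its own reads and those of miR172a//miR172d only, the second miR172d row took 11.7% in ld-1, 16.4% in ld-2 and 18.1% in wild type.

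**Figure D3:**
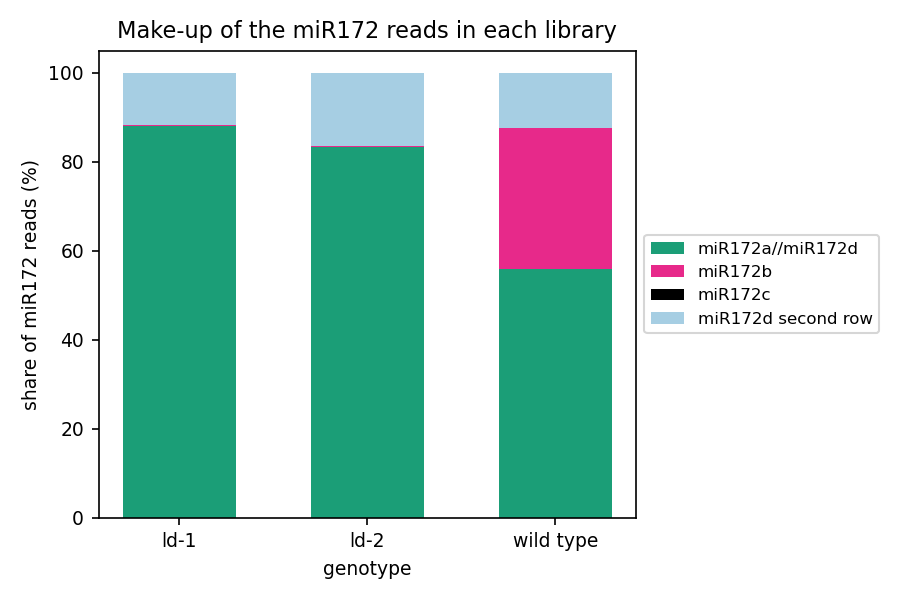
Stacked bars give the share of miR172 reads (%) taken by each row in ld-1, ld-2 and wild type. miR172b takes 0.292% and 0.364% in ld-1 and ld-2 against 31.9% in wild type, and miR172c has no reads.

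Set against miR172a//miR172d alone, there were 0.332 reads of miR172b per 100 in ld-1 and 0.437 in ld-2, against 57.1 in wild type. The odds of a read being miR172b rather than miR172a//miR172d in ld-1 were 0.00582 times those in wild type (exact conditional 95% interval 0.000698 to 0.0214). In ld-2 they were 0.00766 times those in wild type (0.000192 to 0.0436). With the wild type odds, 344 reads of miR172b would stand beside the 603 of miR172a//miR172d in ld-1, and 131 beside the 229 in ld-2. The odds compare these libraries and share the 1 wild type library.

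Neither the labels nor the file says how a read was assigned between sequences this close. The table holds 46 pairs of rows of equal length that differ by 1 base. Apart from the miR172 pair, 19 pairs in ld-1, 17 in ld-2 and 19 in wild type had at least 200 reads of the commoner sequence. The rarer sequence had 0 to 80.1 reads per 100 of the commoner in ld-1 (median 6.76), 0 to 87.4 in ld-2 (median 8.40) and 0.0576 to 86.3 in wild type (median 7.12). The miR172 pair was lower than all but 4 of these pairs in ld-1 and all but 5 in ld-2. In wild type it was higher than 18 of the 19. These close rows include miR166g//miR166h with miR166i, which had 7020 and 4 reads in ld-1 and 3570 and 0 in ld-2. What part misread or reassigned reads have in the 2 and 1 reads of miR172b was not tested.

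The family sum was 685 reads in ld-1, 275 in ld-2 and 935 in wild type. On the scaled RPM scale this was 5668 (5251 to 6109), 3557 (3149 to 4003) and 7970 (7467 to 8497), so both mutant intervals lie below that of wild type. For ld-1 the sum had a log2 ratio of -0.49 (-0.64 to -0.35), a ratio of 0.711. In ld-2 it was -1.16 (-1.36 to -0.97), a ratio of 0.446 and past 2-fold, although with scaling by all miRNA reads it was -0.96 and short of 2-fold. As a share of all miRNA reads the family took 0.486% in ld-1, 0.413% in ld-2 and 0.8004% in wild type, and it ranked 17, 19 and 14 among the families with reads.

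Without miR172b the rest of the family held 683 reads in ld-1, 274 in ld-2 and 637 in wild type. Its log2 ratio in ld-1 was 0.06 (-0.10 to 0.22), an interval that includes 0, and the value turned below 0 when reads were scaled by all miRNA reads (-0.17, -0.33 to -0.01) and with library sizes that leave out the 5 most abundant features (-0.07). In ld-2 it was -0.62 (-0.83 to -0.41), short of 2-fold.

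The difference of ld-1 minus wild type in scaled RPM was -2302 for the family, and -2523 for miR172b alone. For miR172a//miR172d this difference was 540.2, and for the second miR172d row it was -318. In ld-2 the family's difference was -4413 scaled RPM, of which miR172b made 57.3%, miR172a//miR172d 33.7% and the second miR172d row 9.02%. Over the scalings tried, miR172b made 80.8% to 111% of the family's difference in ld-1 and, for ld-2, 54.5% to 65.4%. A value over 100% means that miR172b fell by more than the family as a whole.

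Between the mutants, miR172b could not be compared at this depth, with 1 read in ld-2 and 2 in ld-1 (log2 ratio -0.36, -6.24 to 3.91). miR172a//miR172d was lower in ld-2 than in ld-1 (log2 ratio -0.75, -0.98 to -0.53), short of 2-fold. With scaling by all miRNA reads this value was -0.32. The second miR172d row was at -0.19 (-0.75 to 0.36), an interval that includes 0. No miR172 row was listed between the mutants, against 25.7% of tested features in either direction, 19.3% higher and 6.42% lower. The features listed higher include every tested row of the miR2118 family, so they are not independent features.

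The shift in make-up can be set beside that of other miRNA families. The shift is the percentage points of a family's reads that stand in other rows, computed for 20 families with at least 2 rows with reads and at least 100 reads in each library. It was 32.2 points for miR172 in ld-1 and 31.5 points in ld-2 against wild type, ranking 1 of 20 in both. The next were miR171, of the HAM-targeting family, with 8.80 points in ld-1, and miR396, which targets GRF transcription factors, with 18.3 points in ld-2. Between ld-2 and ld-1 the miR172 shift was 4.76 points, ranking 2 after miR396 with 17.4 points. These are descriptions of 1 library per genotype, and both mutants are set against the same wild type library.

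**Figure D4:**
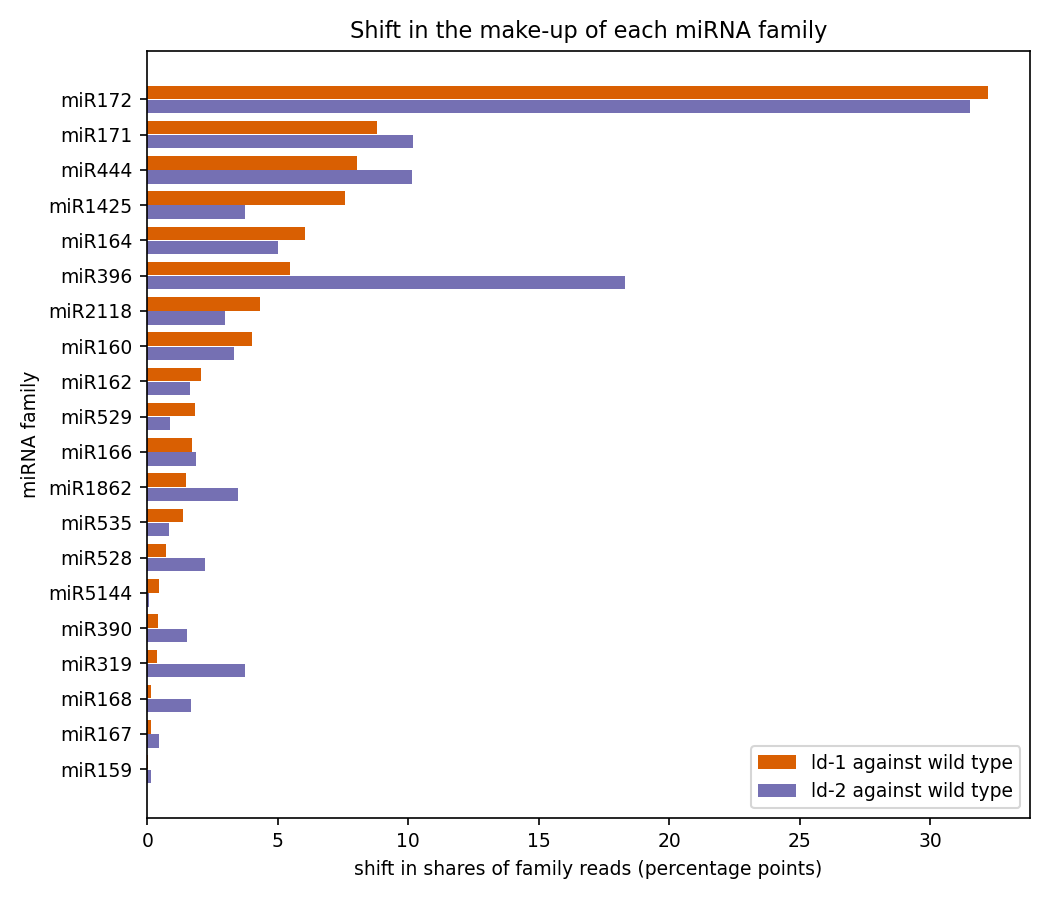
Bars give, for each of 20 miRNA families, the shift in shares of family reads (percentage points) in ld-1 and in ld-2 against wild type. miR172 stands at 32.2 and 31.5 points, above miR171 at 8.80 points in ld-1 and miR396 at 18.3 points in ld-2.

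The members with a shared seed differ at the 5′ base, which in Arabidopsis is known to steer a small RNA towards one Argonaute protein or another. Sequences that begin with G held 1.23% of miRNA reads in ld-1, 1.06% in ld-2 and 1.58% in wild type. In wild type miR172b made 16.2% of these reads. Without miR172b the share was 1.23% in ld-1, 1.06% in ld-2 and 1.33% in wild type. Among the other 12 tested features that begin with G, which include the second miR172d row, the ld-1 median log2 ratio was 0.09 and the ld-2 median was -0.39. None of the 12 was listed in ld-1, while ld-2 had 0 listed higher and 2 lower, with -1.22 as the lowest ratio. Over all tested features 9.17% were listed in ld-1, and in ld-2 20.2% were listed higher and 8.26% lower. The medians over all tested features were -0.03 (ld-1) and -0.08 (ld-2).

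The tested features whose profiles over the 3 libraries lay nearest to each member were found by the distance between log2 scaled RPM values, with 0.5 reads added and each profile centred on its mean. For miR172a//miR172d these were miR1859 (distance 0.06), the miR390 row with 254, 107 and 234 reads in ld-1, ld-2 and wild type (0.11) and the sequence shared by miR167a, miR167b and miR167c (0.11). For the second miR172d row they were the miR444b//miR444c row with 442, 265 and 624 reads (0.08), miR166m (0.11) and the miR535 row with 1116, 732 and 1713 reads (0.15). For miR172b the nearest of the tested features, miR444d, lay 4.94 away, with 96 reads in ld-1, 46 in ld-2 and 156 in wild type. Of the 168 rows with reads that fell under the minimum, 38 lay nearer to miR172b than that. The nearest with over 5 reads in all were a miR1874 row (1 read in ld-1, 1 in ld-2 and 16 in wild type; distance 3.15) and a miR160c row (3, 0 and 15 reads; 3.37), distances that depend on the 0.5 reads added.

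miR172 acts in plants as the counterpart of miR156, which represses SPL factors early in development and gives way to miR172 at the change to the adult and reproductive phase. Of the 9 rows of miR156, miR529 and miR535, families that target SPL transcripts, 4 were tested. Rows are called SPL-targeting by family name only. By sequence, miR529a and the lesser miR535 row read largely as opposite strands of miR529b and of the commonest miR535 row. In ld-1, 0 of the 4 were listed in either direction (against 9.17% of all tested features). Their median log2 ratio was -0.17 beside -0.03 over all tested features. In ld-2, 0 were listed higher (20.2% of all tested features) and 1 lower (8.26%), with a median of -0.61 beside -0.08 over all tested features. The row listed lower was the shared miR156a to miR156j sequence, which had 92 reads in ld-2 and 458 in wild type (log2 ratio -1.71, -2.05 to -1.39), and 464 in ld-1 (-0.02, -0.21 to 0.17). The commonest miR535 row was at -0.66 in ld-1 against -0.62 in ld-2, and miR529a was at -0.32 and -0.60. The lesser miR535 row had 26 reads in ld-1, 13 in ld-2 and 16 in wild type, with intervals that include 0 in both mutants.

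Within a library, miR172 had 147 reads per 100 of miR156 in ld-1, 289 in ld-2 and 204 in wild type. Without miR172b the values were 147 in ld-1, 288 in ld-2 and 139 in wild type. The higher value in ld-2 stands beside its low miR156 count, 95 reads in ld-2 against 459 in wild type. Counted per 100 reads of all SPL-targeting rows, miR172 had 37.5 reads in ld-1, 28.8 in ld-2 and 38.2 in wild type. Both sides of this ratio include rows that read as opposite strands, such as the second miR172d row and miR529a.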

How the data were processed

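Per the labels' protocols, total RNA of young panicles was extracted with Trizol, small RNA of 20 to 30 nt was gel-purified and libraries from the NEXTFlex v3 small RNA kit were sequenced on an Illumina MiSeq. The authors deposited raw read counts per mature sequence, 1 column per library, per the file headers. No source used here states the trimming, mapping, counting rules or annotation release. Members and lists were chosen with earlier results of these data known.

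Counts were scaled by TMM over all rows (edgeR 4.0.16, R 4.3.3; factors 0.858 in ld-1, 1.16 in ld-2 and 1.00 in wild type). Ratio intervals are exact Clopper-Pearson intervals conditional on the pooled reads of a row and on scaled library sizes (Python 3.11.15, scipy 1.17.1). The 109 tested features, with at least 30 summed reads, held 99.7% of reads. Ratios and the listing rule were tested on simulated Poisson counts at the same scaled library sizes. These counts held no spread between plants and no error of scaling, so that test does not cover either. Reads are not independent molecules, so intervals and floors cover counting error only. Without replicates, edgeR's test was not run.

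Rows named were every miR172 row, the 3 nearest profiles of each tested member, non-members within 4 edits or sharing a seed, the 4 commonest SPL-targeting rows and the families next to miR172 in composition shift. The shared miR1861b sequence, miR166g//miR166h, miR166i, and the miR1874 and miR160c rows were named, and 1-base pairs and first bases compared, after values were seen. Alternatives were other scalings (DESeq2 1.42.0 size factors among them), read minimums, thresholds, interval levels and added reads. TMM over the tested rows was added after seeing the data.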

Additional observations from a re-analysis of the deposited data

Results flagged for a closer look

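The log2 ratio of miR172a//miR172d to wild type was 0.17 in ld-1 (-0.01 to 0.34) but -0.59 in ld-2 (-0.82 to -0.36). The ld-1 interval includes 0, so only the point values lay on opposite sides of wild type. The log2 ratio of ld-2 to ld-1 was -0.75 (-0.98 to -0.53). The family without miR172b likewise stood at 0.06 in ld-1 (-0.10 to 0.22) but at -0.62 in ld-2, a difference of -0.67 (-0.88 to -0.47). These intervals cover counting error only, and neither difference was tested across plants. Both ld-1 values turned below 0 with scaling by all miRNA reads (-0.06 and -0.17).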

How the results depend on the processing

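Of 123 alternative values of member and family ratios, 110 kept their direction and their side of the listing threshold. The interval level and the 1.5-fold threshold leave a ratio as it is, so they could change only its listing. miR172b was listed lower in both mutants under all 9 alternatives, from -7.49 to -5.48 (log2) in ld-1, and from -7.71 to -5.06 in ld-2. Of these, the looser 1.5-fold threshold could not unlist miR172b, and added reads changed its ratio but not its interval. The odds of miR172b against all other miR172 rows were 0.00627 in ld-1 and 0.00781 in ld-2 times those in wild type. When all miRNA reads set the scale, the median tested feature moved by -0.23 (ld-1), by 0.21 (ld-2) and by 0.43 (ld-2 against ld-1), and values near 0 changed sign with it. In ld-1 these were miR172a//miR172d (-0.061) and the family without miR172b (-0.17, and -0.071 without the 5 most abundant features). Between ld-2 and ld-1 they were miR172b (0.079, and 0.42 with 5 reads added), the second miR172d row (0.25) and the SPL-targeting median (0.12). The family sum in ld-2 (-0.96) was then no longer listed. Library sizes without the 5 most abundant features shifted the ld-1 median by -0.13, and TMM over the tested rows shifted that of ld-2 by 0.11 and that between the mutants by 0.15.

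With a 1.5-fold threshold, miR172a//miR172d (-0.59), the second miR172d row (-0.75) and the family without miR172b (-0.62) were listed lower in ld-2 than in wild type. So were miR172a//miR172d (-0.75) and the family with and without miR172b (both -0.67) in ld-2 against ld-1, and the features listed lower were 7 (ld-1), 20 (ld-2) and 14 (ld-2 against ld-1), with 1 and 3 SPL-targeting rows in ld-1 and ld-2. With scaling by all miRNA reads there were 5 listed lower for ld-1, 5 for ld-2 and 3 for ld-2 against ld-1, and 5 for ld-1 without the 5 most abundant features. With no read minimum, the ld-1 list held 14 higher and 6 lower features, against 34 higher in ld-2 and 32 higher in ld-2 against ld-1. With a minimum of 100 reads these were 3 higher and 1 lower in ld-1, and 8 and 8 higher. Without the second miR172d row, miR172a//miR172d took 99.7% of family reads in ld-1, 99.6% in ld-2 and 63.7% in wild type, and miR172b 36.3% in wild type. With a minimum of 30 reads miR172 ranked 5 in composition shift between the mutants. Against wild type it then ranked 1 of 26 families in both mutants, and the next in ld-1 was miR812 with 13.6 points. No paired analysis was possible because each genotype has 1 library. The causes of these changes were not tested. At this depth miR172b, with 1 read in ld-2 and 2 in ld-1, could not be compared between the mutants.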
